A study of Homo sapiens with 30 samples.

Results

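The response to the androgen dihydrotestosterone (DHT) was examined in prostate cancer cells in which RB1 had been knocked down for 3 days. The samples were chosen by their labels, as the vehicle and DHT groups at 3 days of doxycycline in the count table of the DHT experiment, and they made up 4 of the 30 samples of the series. The cells were C4-2-tet-shRB, a derivative of the castration-resistant line C4-2 in which doxycycline switches on a short hairpin RNA that targets RB1. Both groups received doxycycline at 0.05 µg/ml for 3 days, and 1 of them also received DHT at 10 nM for 24 hours, which the labels list after the doxycycline. Both were kept in medium with serum low in steroids, a mixture of charcoal-stripped and regular fetal bovine serum. The same experiment held a vehicle and a DHT group at 0 days and at 30 days of doxycycline, which share no library with the 3-day pair. No group had doxycycline with a control hairpin, so loss of RB1, the drug and expression of a hairpin cannot be told apart here. Whether the vehicle cells were collected at the same total time as the DHT cells is not given in the sources used here, and the titles name a vehicle that the treatment labels do not describe.

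Androgens act on transcription, through androgen response elements in DNA at which coactivators are recruited, many of them in distant enhancers. In luminal prostate cells and in cancers derived from them androgens drive secreted kallikreins, lipid synthesis and the secretory machinery, and they also repress genes. RB1 encodes the retinoblastoma protein, which holds E2F transcription factors inactive and thereby restrains the genes of DNA replication. The series was built around RB1 loss and the histone demethylase LSD1 (KDM1A) in castration-resistant prostate cancer, and the 3-day pair asks what DHT does soon after RB1 has been lowered.

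Each group was 1 library read in 2 lanes, which the labels number as replicates. The lanes agreed within sampling noise (chi-square ratio 0.983 to 1.01 over the 6 libraries, against a limit of 1.5) and were summed, so there is 1 sample in each group and no biological replicate. The 3-day vehicle library held 16856486 counted reads and the DHT library 14898454, the most and the fewest of the 6. The 10 most abundant genes took 16.2% of reads with vehicle and 19.4% with DHT, and scaling to library totals alone shifted the median log2 ratio of all genes from -0.01 to -0.18. Intervals given below are exact binomial 95% intervals of the ratio of scaled counts and cover counting error only. Levels are counts scaled to library size (CPM) with TMM factors, and log2 ratios use a prior count of 2. The word rose or fell is used for genes called in an edgeR fit over all 6 libraries, at a Benjamini-Hochberg adjusted p under 0.05. That fit has 1 residual degree of freedom and takes its spread from how far the responses at 0 and 30 days differ, so its p-values assume that the 3-day libraries vary in the same way.

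RB1 transcripts were low in both 3-day libraries. They stood at 7.90 CPM with vehicle against 10.0 CPM with DHT, from 140 counts in each library, whereas the 2 libraries without doxycycline had 47.6 and 51.1 CPM. The difference between the 3-day libraries was not called (log2 ratio 0.34, interval -0.01 to 0.69, edgeR adjusted p = 0.203). KDM1A, which encodes LSD1, stood at 127 CPM with vehicle against 106 CPM with DHT and was not called either (log2 ratio -0.26, adjusted p = 0.119).

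DHT changed the level of many transcripts at 3 days, mostly by less than 2-fold. Of 12288 genes that reached 100 counts in the pair, 395 were at least 2-fold higher with DHT (3.21%) and 222 at least 2-fold lower (1.81%). With library totals as the scale the order turned, with 305 higher and 382 lower, and 280 and 94 had their whole interval past 2-fold. The rises reached further: 89 genes were at least 4-fold higher against 19 that were at least 4-fold lower, and 37 against 4 passed 8-fold. The edgeR fit called 2405 genes higher (13.9% of 17300 tested) and 1870 lower (10.8%), shares to set beside the list counts below. All 395 and 222 genes past 2-fold were among them. Both measures come from the same 3-day libraries, so this overlap is no separate support. Scaling to library totals turned the edgeR split to 1372 higher and 3507 lower. DESeq2 with the same design called 770 higher and 296 lower, all of which were also called by edgeR in the same direction.

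The largest rises joined known androgen targets to genes that were almost silent with vehicle. STEAP4, a metalloreductase of the cell surface, went from 0.169 CPM (3 counts) to 185 CPM, a log2 ratio of 9.28 (interval 8.54 to 12.37). NBL1, a secreted BMP antagonist, went from 0.452 to 33.4 CPM, and SLC26A3, an anion exchanger, from 0.282 to 14 CPM. The glucose transporter SLC2A3 rose from 0.169 CPM (3 counts) to 11.7 CPM and thyroglobulin (TG) from 0.0564 CPM (1 count) to 7.58 CPM. Such low starting counts leave the size of these rises loosely bounded, with intervals of 4.53 to 8.40 and 4.56 to 12.39 on the log2 scale. SGK1, a kinase that regulates ion transport, and MYBPC1, a myosin-binding protein, started higher and were better measured. SGK1 stood at 4.57 CPM with vehicle against 115 CPM with DHT (25.2-fold, interval 4.33 to 4.99 on the log2 scale), and MYBPC1 at 4.91 and 102 CPM (20.7-fold). SNAI2, a repressor of epithelial genes, rose from 0.169 CPM (3 counts) to 7.65 CPM, and TGFB2, a transforming growth factor, from 0.734 to 15.7 CPM. The prostaglandin-degrading enzyme HPGD (0.621 to 15.8 CPM), the proteoglycan SPOCK1 (0.564 to 14.5 CPM), DOCK8 (0.564 to 15.2 CPM), the amino acid transporter SLC38A4 (0.113 to 7.51 CPM, 2 counts with vehicle), ZNF812 (0.282 to 12.4 CPM) and CTB-167B5.2 (0.0564 to 11 CPM, 1 count with vehicle) completed the 15.

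The largest falls were smaller in size. ACKR3, a scavenging chemokine receptor, stood at 57.3 CPM with vehicle against 5.08 CPM with DHT (11.3-fold lower, log2 interval -3.87 to -3.15). The scavenger receptor COLEC12 went from 60.1 to 5.72 CPM, and CAMK2N1, an inhibitor of the kinase CaMKII, from 38.5 to 5.00 CPM. BMP7, a bone morphogenetic protein, fell from 8.75 to 0.786 CPM and the membrane metalloproteinase MMP16 from 98.7 to 15.7 CPM. TERT, the catalytic subunit of telomerase, fell from 7.51 to 1.14 CPM (log2 ratio -2.58, interval -3.56 to -1.96, edgeR adjusted p = 3.4e-11). The other falls by the same rule were SLC6A20, TTC29, ZPLD1, UNC13C, NEURL1, FAM198A, FRMPD2, FRAS1 and MT2P1, with log2 ratios from -3.05 to -2.09. MT2P1 is a metallothionein pseudogene whose reads cannot be told from those of its expressed relatives with certainty.

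**Figure D1:**
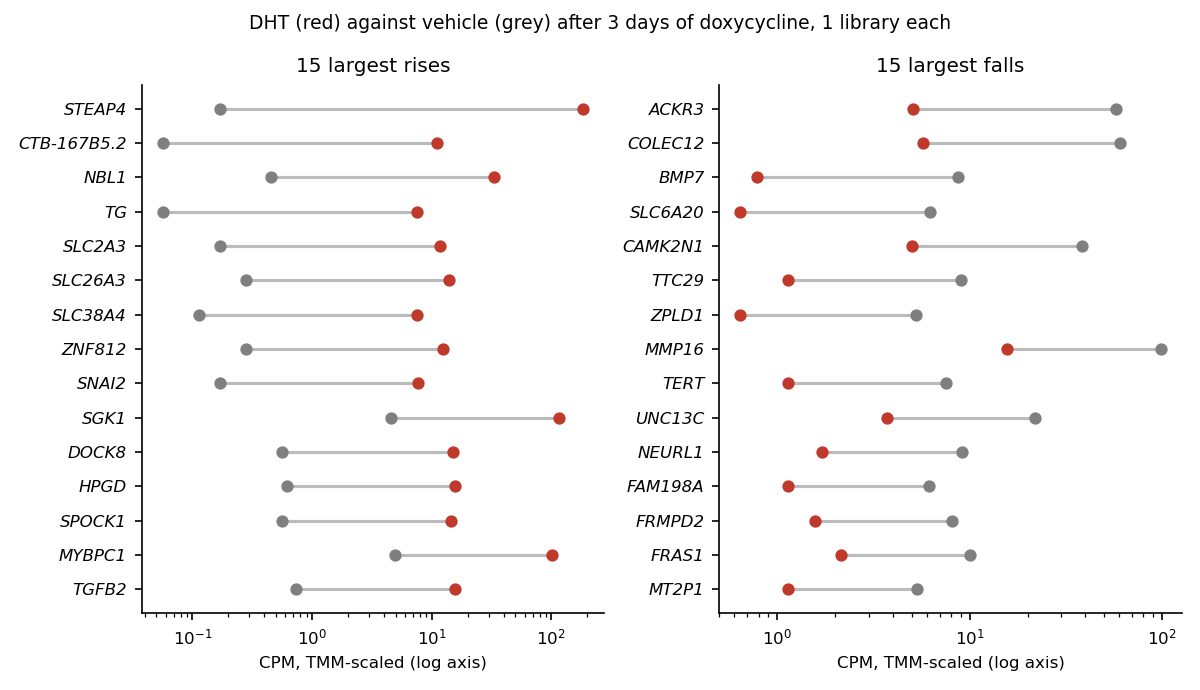
Levels of the 15 genes with the largest rises and the 15 with the largest falls in the 3-day pair, in CPM on a log axis; each point is 1 library, grey for vehicle and red for DHT. Most risen genes start under 1 CPM and STEAP4 ends at 185 CPM, whereas the fallen genes start between 5.25 and 98.7 CPM.

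Classic androgen-induced genes responded as a block. Of 50 members with at least 100 counts, 37 were at least 2-fold higher and 0 at least 2-fold lower, with a median log2 ratio of 1.62 beside -0.01 for all genes. edgeR called 50 of 52 higher and 1 lower, and DESeq2 called 46 higher. FKBP5, a co-chaperone of steroid receptors, stood at 89.1 CPM with vehicle against 819 CPM with DHT (9.19-fold). The transmembrane protease TMPRSS2 went from 400 to 1790 CPM and the solute carrier SLC45A3 from 198 to 1380 CPM. The kallikreins KLK2 and KLK3 rose less. KLK2 stood at 653 and 1420 CPM (2.18-fold). KLK3, which encodes prostate-specific antigen, stood at 3550 and 6830 CPM (1.92-fold, edgeR adjusted p = 3.77e-12), and DESeq2 did not call it (adjusted p = 0.136). TSC22D3, a leucine zipper gene that glucocorticoids also induce, fell from 218 to 158 CPM (not called by DESeq2), and MED28 was not called (56.3 and 51.5 CPM).

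The promoter of KLK3 is shown because it holds the proximal androgen element for which the gene is known. Promoter windows are RefSeq sequences of GRCh38.p14, from 250 bases before to 50 after the annotated start, and are not of the build used for the counts. An androgen response element was searched on both strands as the half-sites AGAACA and TGTTCT 3 bases apart, with up to 2 mismatches over their 12 letters. It was found in 1.41% of 35116 windows, and of the 40 androgen-induced genes with a window KLK3 alone held 1, starting at position -170. The KLK3 window (chr19:50854665-50854964, plus strand) has both half-sites in capitals:
KLK3: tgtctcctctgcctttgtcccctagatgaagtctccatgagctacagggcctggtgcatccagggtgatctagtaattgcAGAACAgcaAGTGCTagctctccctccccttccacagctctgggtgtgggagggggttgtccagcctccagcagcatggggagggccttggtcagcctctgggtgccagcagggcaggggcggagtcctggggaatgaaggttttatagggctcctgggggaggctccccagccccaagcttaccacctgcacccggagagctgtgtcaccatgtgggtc
A half-site alone (AGAACA, either strand) was found in 4 of these 40 windows (10%) and in 14.8% of all windows. Enhancers were not examined.

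Genes listed as androgen-repressed did not move together. edgeR called 12 of 22 lower (54.5%) and 7 higher (31.8%), beside 10.8% and 13.9% of all genes. DESeq2 called 5 lower and 4 higher. The median log2 ratio of the 18 with at least 100 counts was -0.25, and it was -0.48 at a count minimum of 20. Falls were seen for ACKR3 and CAMK2N1, above, for DDC, which makes dopamine (22.5 and 7.72 CPM), for the adhesion protein gene LRRN1 (13.4 and 4.65 CPM) and for BCL2, an inhibitor of apoptosis (6.77 and 3.07 CPM, not called by DESeq2). Against the name of the list, UGT2B28 and UGT2B11 rose (values below), CYP2U1, a fatty acid hydroxylase, rose from 17.0 to 73.3 CPM and TMEFF2 from 2.99 to 8.15 CPM.

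The UGT2B enzymes in the list of androgen inactivation and synthesis split. UGT2B28 stood at 0.734 CPM with vehicle against 14.4 CPM with DHT, and UGT2B11 at 1.86 and 19.5 CPM, so both were more than 10-fold higher. UGT2B17, the enzyme that clears DHT as a glucuronide, fell from 5.53 to 1.79 CPM and UGT2B15 from 9.76 to 5.79 CPM, calls that DESeq2 did not make (adjusted p = 0.22 and 0.53). These genes are close paralogs, and how reads shared between them were counted is not given in the sources used here. Among the other enzymes RDH11, a retinal reductase, rose from 203 to 431 CPM and steroid sulfatase (STS) from 15.1 to 36.4 CPM. The 5-alpha reductase SRD5A1 rose from 15.7 to 23.5 CPM (not called by DESeq2). In this list 8 of 18 rose (44.4%) and 4 fell (22.2%), beside 13.9% and 10.8% of all genes.

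Factors and coregulators that act with androgens in transcription changed by little: of 28 genes of that list tested, 5 rose (17.9%, beside 13.9% of all genes) and 6 fell (21.4%, beside 10.8%), with a median log2 ratio of -0.06. PIAS1, a SUMO ligase, was the only member past 2-fold (28.2 and 63.5 CPM). The pioneer factor FOXA1 rose from 391 to 505 CPM and GRHL2 from 236 to 364 CPM, whereas HOXB13 fell from 365 to 273 CPM and GATA2 from 218 to 136 CPM. DESeq2 kept the calls of GRHL2 and GATA2 and lost those of FOXA1 (adjusted p = 0.10) and HOXB13 (0.11). Transcripts of fewer responding cells and lower levels in every cell cannot be told apart in these bulk samples.

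The labelled cell type was checked against luminal prostate markers, which were present in both libraries. All 14 had at least 100 counts in the pair, and their summed level was 7550 CPM with vehicle against 14900 CPM with DHT. KRT8, a luminal keratin, rose from 127 to 586 CPM, whereas FOLH1, EPCAM and CDH1 were not called. Of 10 basal markers 2 had at least 100 counts, and KRT5 and KRT17 were at 0 in both libraries. The basal list summed to 98.1 CPM with vehicle against 63.1 CPM with DHT, most of it from the integrin ITGA6, which fell from 89.7 to 53.3 CPM. The stromal, endothelial and blood markers summed to 17.1 CPM with vehicle against 20.0 CPM with DHT, and 7 of the 16 matched were at 0. Of 20 neuroendocrine markers 6 were at 0, CHGA stood at 0.0564 and 0.0715 CPM and SYP at 1.41 and 1.43 CPM. Within that list PEG10, a retrotransposon-derived gene, rose from 29.0 to 117 CPM and SYT4, a synaptotagmin, from 247 to 384 CPM, whereas the enolase ENO2 fell from 19 to 13.4 CPM (not called by DESeq2). The part of these markers in the other results was not tested.

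**Figure D2:**
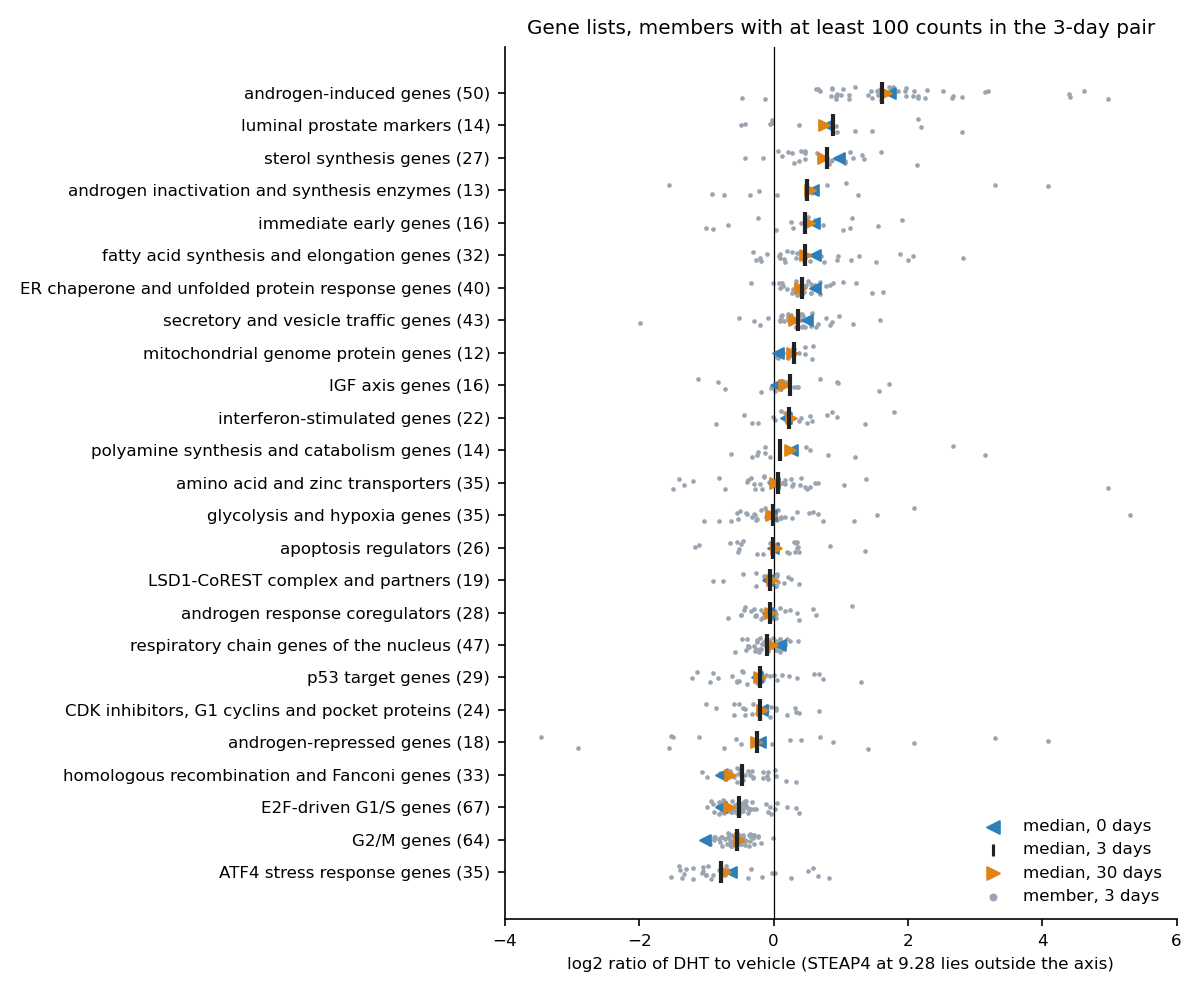
Log2 ratio of DHT to vehicle at 3 days for the members of each gene list (grey points, 1 gene each; the number in brackets counts members), with the median at 3 days (black bar), 0 days (blue) and 30 days (orange). Androgen-induced and sterol genes lie to the right (medians 1.62 and 0.80), ATF4, G2/M and E2F-driven genes to the left (medians -0.78, -0.55 and -0.51).

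Cell-cycle genes fell with DHT at 3 days, none of them by 2-fold. Among 67 E2F-driven genes of G1 and S phase, edgeR called 55 lower and 2 higher (median log2 ratio -0.51), and among 64 genes of G2 and mitosis 54 lower and 0 higher (median -0.55). DESeq2 called 14 and 10 of them lower. The origin-licensing genes ORC1 (51.9 and 26 CPM with vehicle and DHT) and CDT1 (80.7 and 42.2 CPM) and thymidine kinase TK1 (200 and 106 CPM) had the lowest ratios of the E2F list. MCM2, a subunit of the replicative helicase, went from 432 to 259 CPM, and E2F1 itself from 101 to 71.7 CPM (log2 ratio -0.50, interval -0.61 to -0.39, edgeR adjusted p = 0.000435; DESeq2 adjusted p = 0.144). FAM111B, a protease gene, and cyclin D1 (CCND1) rose, from 132 to 166 CPM and from 270 to 352 CPM, and DESeq2 called neither. In the mitotic list securin (PTTG1) stood at 129 and 66.4 CPM, the spindle checkpoint gene MAD2L1 at 73.5 and 37.9 CPM, cyclin B2 (CCNB2) at 129 and 69.5 CPM and the kinase PLK1 at 95.8 and 62.1 CPM. MKI67, the proliferation antigen, fell less (90.1 and 70.6 CPM, log2 ratio -0.35), and DESeq2 called neither it nor PTTG1 or PLK1.

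Promoters of these genes are shown because sites for their known regulators lie close to the start. E2F sites were searched as TTTGGCGC, TTTCCCGC, TTTGCCGC or TTTCGCGC on either strand. They were found in 26 of 53 E2F-list windows (49.1%) and in 3.31% of all windows. The cell-cycle homology region of mitotic genes (CHR) was searched as TTTGAA or TTCGAA on either strand and was found in 37 of 54 G2/M windows (68.5%) and in 16.4% of all windows. The windows of E2F1 (chr20:33686336-33686635, minus strand), MCM2 (chr3:127598161-127598460, plus strand), PLK1 (chr16:23678639-23678938, plus strand) and CCNB2 (chr15:59104896-59105195, plus strand) have these sites in capitals, and in MCM2 a pair of sites overlaps:
E2F1: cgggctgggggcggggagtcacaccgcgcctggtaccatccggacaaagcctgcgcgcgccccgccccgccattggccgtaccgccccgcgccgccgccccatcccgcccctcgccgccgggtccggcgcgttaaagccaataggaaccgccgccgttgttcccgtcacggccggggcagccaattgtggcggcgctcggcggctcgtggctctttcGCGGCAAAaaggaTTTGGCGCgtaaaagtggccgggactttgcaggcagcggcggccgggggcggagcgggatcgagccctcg
MCM2: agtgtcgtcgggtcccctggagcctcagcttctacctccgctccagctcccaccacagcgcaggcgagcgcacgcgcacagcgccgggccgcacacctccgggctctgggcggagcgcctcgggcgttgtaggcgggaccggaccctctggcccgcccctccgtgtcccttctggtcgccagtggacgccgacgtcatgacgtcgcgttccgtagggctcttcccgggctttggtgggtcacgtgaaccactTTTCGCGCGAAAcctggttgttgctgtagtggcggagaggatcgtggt
PLK1: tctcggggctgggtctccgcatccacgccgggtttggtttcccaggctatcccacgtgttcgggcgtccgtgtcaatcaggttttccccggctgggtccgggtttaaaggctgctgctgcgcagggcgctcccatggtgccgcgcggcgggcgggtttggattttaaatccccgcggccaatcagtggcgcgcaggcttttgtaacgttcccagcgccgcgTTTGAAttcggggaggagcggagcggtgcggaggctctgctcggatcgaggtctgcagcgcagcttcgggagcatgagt
CCNB2: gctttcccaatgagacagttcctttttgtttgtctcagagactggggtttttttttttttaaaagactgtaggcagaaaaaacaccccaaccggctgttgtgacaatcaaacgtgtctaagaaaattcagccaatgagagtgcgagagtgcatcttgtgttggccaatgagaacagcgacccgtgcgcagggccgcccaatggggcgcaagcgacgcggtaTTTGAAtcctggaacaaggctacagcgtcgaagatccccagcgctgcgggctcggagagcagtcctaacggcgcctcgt
The CHR starts at position -29 in both PLK1 and CCNB2. A match is a description of the letters and not evidence that the site was bound in these cells.

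The regulators around the restriction point were less uniform. The CDK inhibitor CDKN1A rose from 93.7 to 151 CPM. SKP2, which targets CDK inhibitors for degradation, fell from 93.2 to 51.2 CPM and MYC from 273 to 136 CPM, the one member past 2-fold. Of 25 CDK inhibitors, G1 cyclins and pocket protein genes tested, 3 rose (12%) and 8 fell (32%), beside 13.9% and 10.8% of all genes. RBL1, a relative of RB1, fell from 67.3 to 50.2 CPM (not called by DESeq2), whereas RBL2 was not called (144 and 147 CPM). CDKN2B, an INK4 inhibitor, rose from 1.02 to 4.50 CPM on fewer than 100 counts.

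Homologous recombination and Fanconi genes fell alongside. edgeR called 19 of 33 lower and 1 higher, and DESeq2 5 lower, with a median log2 ratio of -0.47. BARD1, the partner of BRCA1, had the lowest ratio (234 and 112 CPM, log2 ratio -1.06). BRCA1 stood at 122 and 83.3 CPM, BRCA2 at 158 and 99.4 CPM and FANCD2 at 107 and 61.6 CPM. The checkpoint kinase ATR was the member that rose (92.6 and 117 CPM, not called by DESeq2).

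Genes of sterol synthesis rose in most steps of the pathway. Of 27 tested, edgeR called 21 higher and 1 lower, and DESeq2 16 higher, with a median log2 ratio of 0.80. HMGCS1, which makes HMG-CoA, stood at 77.6 CPM with vehicle against 340 CPM with DHT (4.38-fold). FDFT1, which makes squalene, went from 454 to 1150 CPM, and the sensor INSIG1 from 564 to 1240 CPM. SQLE, squalene epoxidase, moved little (81.2 and 98.5 CPM, edgeR adjusted p = 0.0443). TMEM97, a sterol-responsive membrane protein gene, fell from 211 to 157 CPM, and DESeq2 called neither gene.

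In the fatty acid list 21 of 37 genes rose and 0 fell, and DESeq2 called 14 higher. ACSL3, an acyl-CoA synthetase of lipid droplets, stood at 356 and 2510 CPM (7.05-fold), the elongase ELOVL5 at 574 and 2120 CPM and fatty acid synthase (FASN) at 2030 and 5870 CPM. ACLY and ACACA, which feed synthesis, rose less, from 757 to 1090 CPM and from 445 to 702 CPM, as did the desaturase SCD, from 612 to 1200 CPM.

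Chaperones and export factors of the endoplasmic reticulum (ER) rose by small amounts. edgeR called 32 of 41 higher and 1 lower (median log2 ratio 0.42), and DESeq2 17 higher. EDEM3, which trims glycans of misfolded proteins, stood at 107 and 332 CPM, the retrieval receptor KDELR3 at 11.1 and 31.0 CPM and the co-chaperone DNAJB9 at 27.2 and 63.8 CPM. HSPA5, the main ER chaperone BiP, went from 144 to 211 CPM (log2 ratio 0.56, interval 0.48 to 0.63). XBP1, a transcription factor of the unfolded protein response, was the member that fell (372 and 293 CPM, not called by DESeq2). The ER stress element was searched as CCAAT and CCACG 9 bases apart on either strand, and it was found in 6 of 38 windows of the list (15.8%) and in 0.0769% of all windows. The HSPA5 window (chr9:125241294-125241593, minus strand) is shown because it holds 1 such element, at position -66, with its letters in capitals:
HSPA5: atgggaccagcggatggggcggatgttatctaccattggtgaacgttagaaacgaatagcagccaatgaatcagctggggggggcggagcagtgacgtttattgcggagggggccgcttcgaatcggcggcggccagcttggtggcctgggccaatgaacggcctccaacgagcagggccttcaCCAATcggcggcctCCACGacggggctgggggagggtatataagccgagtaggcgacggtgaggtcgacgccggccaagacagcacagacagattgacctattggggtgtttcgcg

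Of 43 secretory and vesicle traffic genes edgeR called 23 higher and 1 lower, and DESeq2 11 higher and 1 lower. RAB3B, a GTPase of secretory vesicles, rose from 127 to 380 CPM, RAB4A from 54.1 to 123 CPM and UAP1, which makes UDP-GlcNAc, from 391 to 767 CPM. SYTL2, a Rab27 effector, went the other way, from 67.6 to 17.0 CPM (3.97-fold lower). A search for the sterol element TCACNCCAC, on either strand, gave 1 of 22 sterol-gene windows (4.55%) and 1.13% of all windows.

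Targets of ATF4, the transcription factor of the integrated stress response, fell more than any other list described by its median (-0.78). edgeR called 27 of 35 lower and 4 higher, DESeq2 22 lower and 1 higher, and 13 were at least 2-fold lower. ATF4 itself stood at 564 CPM with vehicle against 281 CPM with DHT. Asparagine synthetase (ASNS) went from 418 to 160 CPM, the amino acid transporters SLC7A5 and SLC7A11 from 313 to 118 CPM and from 530 to 210 CPM, and the glycoprotein hormone STC2 from 164 to 57.0 CPM. The serine synthesis enzymes PHGDH (619 and 298 CPM), PSAT1 (494 and 199 CPM) and PSPH (92.1 and 44.0 CPM) were among the 13. VEGFA, an angiogenic factor, rose from 182 to 275 CPM, as did ATF3 from 46.2 to 66.2 CPM, which DESeq2 did not call.

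Of 15 polyamine genes 6 rose (40%) and 1 fell (6.67%), beside 13.9% and 10.8% of all genes, with a list median of 0.09. SAT1, which acetylates spermidine and spermine, stood at 44.0 and 392 CPM (8.93-fold), spermine synthase (SMS) at 81.8 and 523 CPM and ornithine decarboxylase (ODC1) at 1170 and 2720 CPM. Spermidine synthase (SRM) was not called (87.3 and 73.5 CPM). SMOX, spermine oxidase, fell (9.71 and 6.22 CPM, not called by DESeq2). Among amino acid and zinc transporters 12 of 38 rose (31.6%) and 8 fell (21.1%), beside 13.9% and 10.8% of all genes.

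Glycolysis and hypoxia genes were split, with 10 of 36 higher (27.8%) and 9 lower (25%), beside 13.9% and 10.8% of all genes. Their median log2 ratio was -0.01. Beside SLC2A3, the transporter SLC2A12 rose from 31.2 to 91.1 CPM and hexokinase HK1 from 216 to 358 CPM. The kinase PFKFB3 fell from 51.4 to 29.1 CPM and carbonic anhydrase CA12 from 41.4 to 20.2 CPM, whereas LDHA was not called (625 and 619 CPM). Of 49 nuclear respiratory chain genes 1 was called higher (2.04%, beside 13.9% of all genes) and 6 lower (12.2%, near the 10.8% of all genes), of which DESeq2 kept 1, CYC1 (274 and 184 CPM). Of 13 protein genes of the mitochondrial genome, 5 were called higher by edgeR (38.5%, beside 13.9% of all genes) and 0 by DESeq2. Their median log2 ratio of 0.30 became 0.14 with library totals as the scale. MT-CO1 stood at 356 and 440 CPM and MT-ND3 at 28.5 and 42.8 CPM.

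Smaller groups gave isolated changes. GDF15, a stress cytokine in the p53 list, rose from 578 to 1430 CPM. FAS, a death receptor, fell from 9.59 to 4.29 CPM (not called by DESeq2), and MDM2 was not called (203 and 204 CPM). In that list 4 of 29 rose (13.8%, as over all genes) and 10 fell (34.5%, beside 10.8% of all genes). The insulin-like growth factor receptor IGF1R rose from 18.7 to 55.8 CPM and IGFBP3 from 8.80 to 29.2 CPM, whereas IGFBP2 fell from 181 to 82.9 CPM. Among 27 apoptosis regulators 5 rose (18.5%) and 6 fell (22.2%), beside 13.9% and 10.8% of all genes, with a median log2 ratio of -0.01. Inhibitors of apoptosis went both ways. BIRC3 rose from 16.5 to 42.5 CPM and BCL2L1 from 96.2 to 173 CPM, whereas BCL2 fell, as given above, and BIRC5 fell from 67.8 to 43.3 CPM. Of the genes that promote apoptosis PMAIP1 fell from 16.6 to 7.29 CPM and the caspase CASP8 rose from 31.2 to 40 CPM. DESeq2 called 2 members of this list higher and 0 lower. Among immediate early genes 9 of 23 rose (39.1%, beside 13.9% of all genes), with DUSP1, a phosphatase, at 20.5 and 60.3 CPM. In that list 3 fell (13%, near the 10.8% of all genes), MYC among them. Of 36 interferon-stimulated genes 8 rose (22.2%) and 2 fell (5.56%), beside 13.9% and 10.8% of all genes. The ubiquitin ligase HERC5 led the rises (3.44 and 12.2 CPM). CTBP1, a corepressor, fell from 169 to 90.7 CPM, and in the LSD1-CoREST list 1 of 20 rose (5%) and 3 fell (15%), beside 13.9% and 10.8% of all genes.

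The pairs at 0 and 30 days of doxycycline were set beside the 3-day pair. At 0 days 489 of 12125 genes were at least 2-fold higher and 420 lower, and at 30 days 394 and 221 of 12312. Over 11997 genes with at least 100 counts in each pair, 343 of the 381 genes that were 2-fold higher at 3 days were so at 0 days (90% of them, and 73% of the 470 at 0 days), and 326 were so at 30 days (85.6%, and 85.8% of 380). Of 206 genes 2-fold lower at 3 days, 157 were so at 0 days (76.2%, and 38% of 413) and 135 at 30 days (65.5%, and 69.2% of 195). Only 21 of the higher and 32 of the lower genes were past 2-fold at neither of the other levels. Across genes, which are not independent and share a batch of libraries, the log2 ratios at 3 days correlated with those at 0 days at r = 0.907 and with those at 30 days at r = 0.921. The slope of the 3-day ratios on the 0-day ratios was 0.817, and that of the 30-day ratios 0.798.

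**Figure D3:**
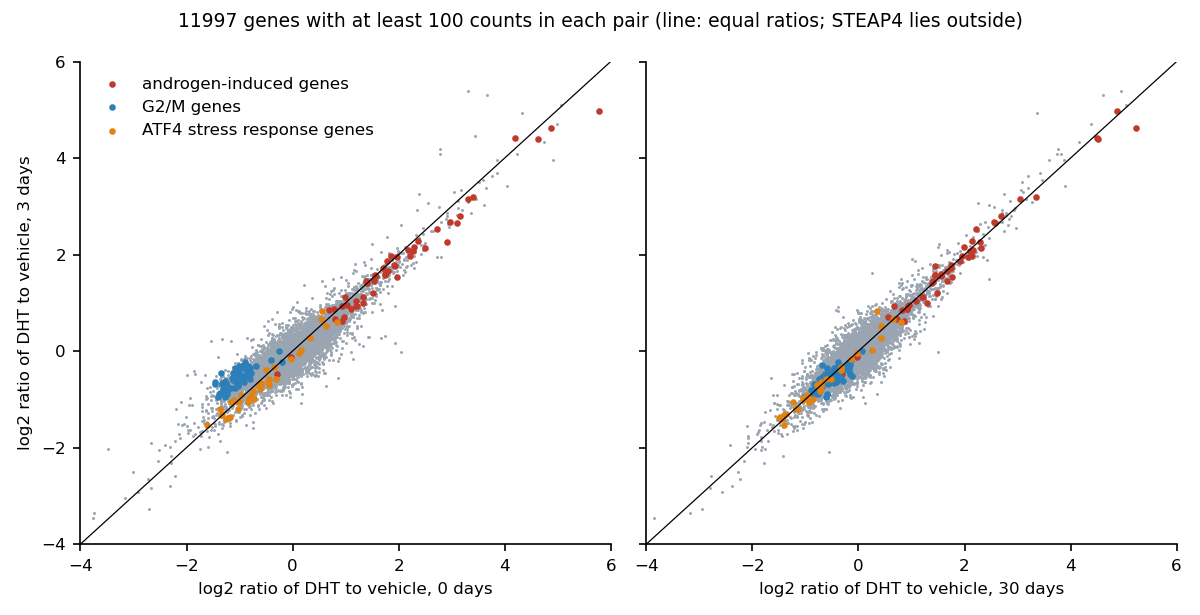
Log2 ratio of DHT to vehicle at 3 days (vertical) against that at 0 days (left) and 30 days (right), 1 point per gene with at least 100 counts in each pair; the line marks equal ratios. Most androgen-induced genes (red) lie just under the line on the left, most G2/M genes (blue) lie above it on the left and near it on the right, and STEAP4 lies outside the axes.

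Androgen-induced genes rose at each level. Their summed level went from 10900 to 33800 CPM at 0 days, from 10600 to 29000 CPM at 3 days and from 10600 to 29400 CPM at 30 days, and the 3-day ratio was above the 0-day ratio in 10 of 50 of them, beside 5166 of 12288 over all genes. STEAP4 reached 185, 185 and 187 CPM with DHT at 0, 3 and 30 days, and FKBP5 838, 819 and 845 CPM. KLK3 reached 8390, 6830 and 6400 CPM with DHT from 3610, 3550 and 3350 CPM with vehicle, so its log2 ratio was 1.22, 0.94 and 0.93. Its 3-day response was not called different from the response common to 0 and 30 days (-0.10 ± 0.16 (SE), edgeR unadjusted p = 0.506). That contrast does not set 0 days against 3 and 30 days, so the lower ratio at those 2 levels was not tested. List medians at 0, 3 and 30 days were -0.64, -0.78 and -0.73 for ATF4 targets, 0.98, 0.80 and 0.74 for sterol genes and 0.61, 0.42 and 0.39 for the ER list, where the 3-day ratio was above the 0-day ratio in 4 of 40 genes.

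The ratios of cell-cycle genes at 3 days stood closer to 0 than those at 0 days. The 3-day ratio was above the 0-day ratio in 63 of 67 E2F-driven genes, in 63 of 64 G2/M genes and in 30 of 33 recombination genes. It was above both others in 49, 25 and 24 of them (73.1%, 39.1% and 72.7%), beside 3087 of 12288 genes (25.1%). The summed level of the G2/M list was 7410 CPM with vehicle against 5080 CPM with DHT at 3 days, against 7110 and 3520 CPM at 0 days and 6750 and 4750 CPM at 30 days. The E2F list summed to 6830 and 4920 CPM at 3 days, against 5920 and 3650 CPM at 0 days and 7100 and 4770 CPM at 30 days. In both lists the DHT library of 0 days was the lowest of the 6. At single genes the difference of the 3-day response from the other levels was called in 0 of these members by edgeR. At an unadjusted p under 0.05 it was higher in 13 E2F, 19 G2/M and 9 recombination genes and lower in 0. Over all 17300 genes tested it was higher in 304 and lower in 192. This test sets 3 days against 1 response common to 0 and 30 days, so it compares 3 days neither with 0 days alone nor with 30 days alone. The 0 calls are therefore no test of the shift between 0 and 3 days. The 3-day ratio was above the 30-day ratio in 52 of 67 E2F-driven, 25 of 64 G2/M and 25 of 33 recombination genes. That count was not taken over all genes, so no background share stands beside it. In the same order, the list medians at 3 and 30 days were -0.51 and -0.66, -0.55 and -0.52, and -0.47 and -0.65. Over all genes they were -0.01 and 0.01. DIAPH3, a formin, CENPE, a kinesin of the spindle, and BRCA1 had the smallest p among protein-coding genes of the nucleus. DIAPH3 had log2 ratios of -1.37, -0.58 and -0.99 at 0, 3 and 30 days (difference 0.60 ± 0.17 (SE), edgeR adjusted p = 0.802). CENPE had -1.36, -0.46 and -0.55, and BRCA1 -1.11, -0.55 and -0.91.

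**Figure D4:**
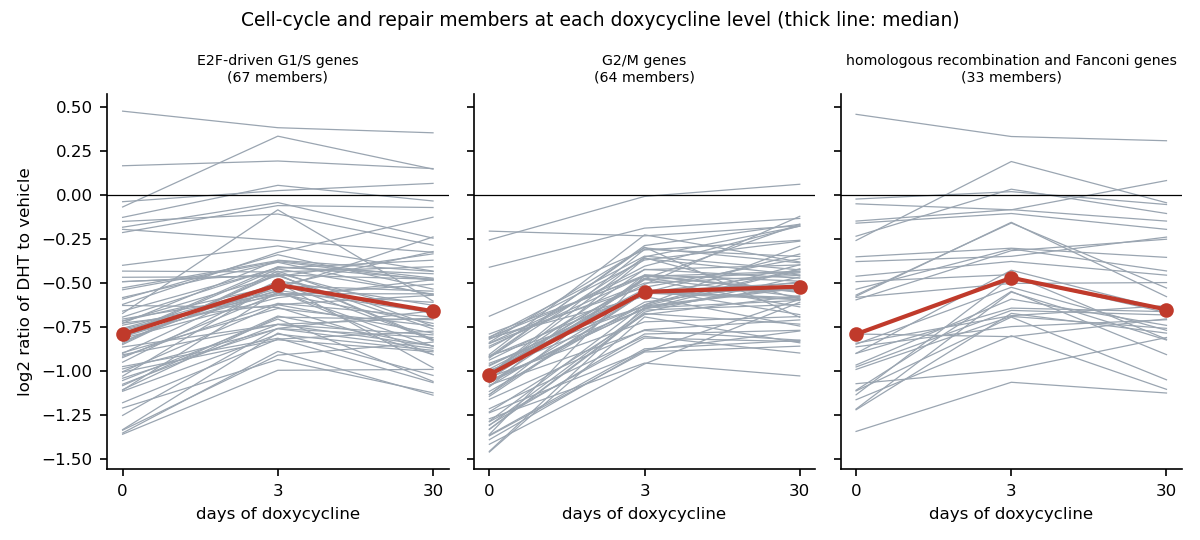
Log2 ratio of DHT to vehicle at 0, 3 and 30 days of doxycycline for each member of the E2F-driven, G2/M and recombination lists (thin lines) and the list median (thick line), from 1 library per group. The medians go from -0.79 to -0.51 to -0.66, from -1.02 to -0.55 to -0.52 and from -0.79 to -0.47 to -0.65.

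Tested over all genes, the response at 3 days departed from that at 0 and 30 days at 6 loci (0.0347% of 17300), and 496 passed an unadjusted p under 0.05, 304 higher and 192 lower. DESeq2 called 0 (10 at an unadjusted p under 0.05). Of the 6 loci, 4 carry clone-based names (CTD-2328D6.1, AC079949.1, AL161626.1 and AC010970.2), and the others are the microRNA gene MIR3687 and MT-CO2. CTD-2328D6.1 stood at 703 CPM with vehicle against 2900 CPM with DHT at 0 days, at 1970 and 1930 CPM at 3 days and at 836 and 2350 CPM at 30 days. The 3-day vehicle library was thus the high one among the vehicle libraries, and the same held for AC079949.1, AL161626.1, AC010970.2 and MIR3687. Together the 5 loci took 0.428% of reads in the 3-day vehicle library and 0.191% and 0.236% in the other vehicle libraries. They took 0.41% in the 3-day DHT library and 0.584% and 0.458% in the other DHT libraries. MIR3687 was the one of the 5 that fell with DHT at 3 days (70.4 and 38 CPM), against 55.1 and 62.3 CPM at 0 days and 31.1 and 39.6 CPM at 30 days. RNA5-8SP6, a ribosomal RNA pseudogene by its name, ranked next after the 6 loci and was not called (log2 difference -0.91 ± 0.23 (SE)). Its vehicle level was also highest at 3 days, with 6.74, 14.4 and 10.3 CPM at 0, 3 and 30 days. With DHT it stood at 17.2, 15.4 and 17.7 CPM. Whether reads from ribosomal RNA have a part in the 5 loci was not tested. MT-CO2, a mitochondrial subunit of cytochrome c oxidase, stood at 107 and 148 CPM at 3 days, at 158 and 132 CPM at 0 days and at 130 and 108 CPM at 30 days. The share of reads from mitochondrial protein genes was 0.111% with vehicle and 0.122% with DHT at 3 days, and its part in this result was not tested. A fit without mitochondrial genes and the 5 loci leaves out all 6 called loci, so it cannot test them. Among the remaining genes it called 0 (485 at an unadjusted p under 0.05).

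**Figure D5:**
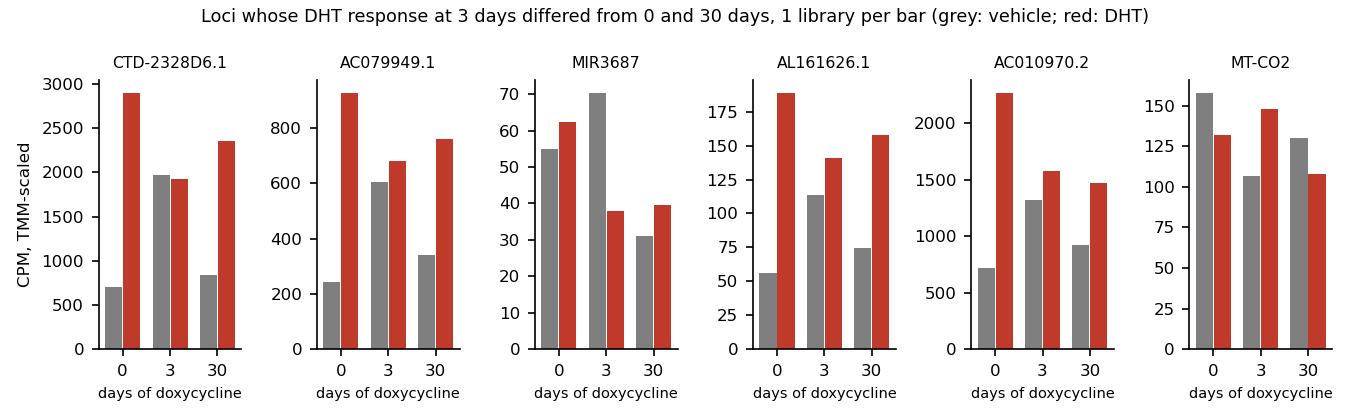
Levels in CPM of the 6 loci whose DHT response at 3 days differed from that at 0 and 30 days, 1 library per bar, grey for vehicle and red for DHT, by days of doxycycline. For CTD-2328D6.1 the DHT bar exceeds the vehicle bar only at 0 and 30 days; MT-CO2 is higher with DHT only at 3 days.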

How the data were processed

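RNA was sequenced from C4-2-tet-shRB cells with a stranded total RNA kit, per the labels' protocols. The values deposited by the authors were raw counts per Ensembl gene, made with FastQC 0.11.9, STAR 2.7.2 and featureCounts 1.6.4 on hg19 (GRCh37), per the submitters' processing notes. Strand setting, annotation version and the treatment of reads with several alignments are not given in the sources used here. Lanes were summed, since both columns of a group share a library name and index. The p-values then rest on how far the responses at 0 and 30 days differ. The 3-day pair has terms of its own and adds nothing to that spread.

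Ratios were taken in genes that reached 100 counts in the pair, after TMM scaling over 6 libraries. The main test was edgeR 4.0.16 (R 4.3.3), with filterByExpr, the quasi-likelihood F test and Benjamini-Hochberg adjustment, on a term for each doxycycline level, a DHT response common to 0 and 30 days and one of its own for 3 days (5 coefficients). The prior degrees of freedom were infinite, so every gene's spread came from the trend over all genes (biological coefficient of variation 5.68%), whereas DESeq2 1.42.0, the alternative, keeps more of each gene's own spread. The fit was tested on simulated counts with the same dispersion for every gene and no DHT response at 0 or 30 days. Such counts cannot show whether the 3-day libraries vary like the others. No lists were tested as sets. Counts per list are of members that passed filterByExpr, and 2-fold counts and medians are of members with at least 100 counts, so members absent from both libraries enter neither. Other alternatives were scaling, count minimum, prior count and single lanes.

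The members and gene lists were chosen with earlier results of these data known. Genes named are RB1, KDM1A, KLK3 and E2F1, the 15 largest called rises and falls, the 10 smallest p-values of the difference between levels, and for each list the core members and up to 4 extremes in each direction; those among them that add no value are left out, and some results are not reported here. EPCAM, LRRN1, MKI67, CDKN2B, HK1, PHGDH, PSAT1 and PSPH are list members named after their values were seen.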

Additional observations from a re-analysis of the deposited data

Results flagged for a closer look

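The DHT response at 3 days differed from the response common to 0 and 30 days at 6 loci, by the edgeR interaction term with Benjamini-Hochberg adjustment over all genes. The log2 differences are given with their SE, from 1 library per group. It was lower at 3 days for CTD-2328D6.1 (-1.77 ± 0.15, adjusted p = 1.16e-28), AC079949.1 (-1.34 ± 0.14, adjusted p = 8.87e-18), AL161626.1 (-1.06 ± 0.14, adjusted p = 2.27e-10), MIR3687 (-1.12 ± 0.15, adjusted p = 2.15e-09) and AC010970.2 (-0.88 ± 0.15, adjusted p = 4.09e-06). It was higher at 3 days for MT-CO2 (0.76 ± 0.14, adjusted p = 0.000129). DESeq2 called 0 of them, and with robust moderation in edgeR, chosen after the data were seen, AC010970.2 was no longer called. The part of the 3-day vehicle library, which is high at the first 5 loci, was not tested.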

How the results depend on the processing

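No paired analysis was possible because the numbered columns of a group are lanes of 1 library, and leaving out a library would leave 0 residual degrees of freedom. Counts of genes moved with several choices. With library totals only, 305 genes were at least 2-fold higher and 382 lower, and edgeR called 1372 higher and 3507 lower. A count minimum of 20 gave 660 genes 2-fold higher and 572 lower, and no minimum beyond 1 gave 1766 and 1829. Asking that the whole 95% interval lie past 2-fold left 280 higher and 94 lower. An additive design called 4135 higher and 3948 lower, and DESeq2 770 and 296. The difference between levels gave 0 calls with DESeq2 (10 at an unadjusted p under 0.05) and 0 in edgeR without mitochondrial genes and the 5 other loci, a choice made after the data were seen (485 at an unadjusted p under 0.05, smallest adjusted p 0.584). That choice removes every locus called in the main fit, so it cannot test those loci. The median of the basal markers reversed, from -0.35 to 0.051, at the count minimum of 20, since 2 members pass 100 counts. Of the other alternative values, 198 of 1116 single-gene ratios moved by more than their counting error and 38 of 168 list medians by more than 0.1, mostly with library totals as the scale. Signs turned for genes that were not called and for list medians within 0.1 of 0, such as those of the polyamine (0.091 to -0.07) and transporter lists (0.063 to -0.10) with library totals. The cause was not tested. Depth limits the ratios of genes under 100 counts, and 1 library per group limits every result.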

Other observations

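The next 4 genes were in no list and were picked after their values were seen, because they were higher with DHT; they say nothing of a pathway as a whole. NFKBIA, the inhibitor that NF-kappaB induces, stood at 99.4 CPM with vehicle against 247 CPM with DHT (edgeR adjusted p = 2.5e-29). TNFAIP3, a deubiquitinase that ends the signal, stood at 3.33 and 9.22 CPM (adjusted p = 1.51e-06) and RELB at 2.09 and 5.08 CPM (adjusted p = 0.00217). NFKB2 stood at 40.9 and 68.2 CPM (adjusted p = 2.42e-08). The metallothioneins MT2A (50.7 and 20.0 CPM, adjusted p = 1.33e-19) and MT1X (18.2 and 6.43 CPM, adjusted p = 1.03e-11) were lower with DHT, also chosen after their values were seen.

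Some genes had reads in only 1 of the 3-day libraries. With at least 20 counts there, 9 had reads only with DHT and 4 only with vehicle. LINC00160 had 44 counts with DHT, at least 18.6-fold higher against a floor of 3 counts per library. VSTM2A and the acute-phase genes ORM2 and ORM1, paralogs that can share reads, had 32, 32 and 26 counts, FUT9, a fucosyltransferase, had 31, and LYZ, lysozyme, had 24 (at least 10.1-fold higher). With vehicle only, the forkhead factor FOXQ1 had 42 counts (at least 11.1-fold lower with DHT) and tenascin C (TNC) had 33 (at least 8.68-fold lower).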
